A study of Mus musculus with 16 samples.

Results

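The germline and meiosis genes described here are 37 mouse genes chosen by function: 8 genes of germ cell fate, 12 of meiosis, 14 of the piRNA pathway and 3 other genes of testis germ cells. They and all further gene lists were chosen with earlier results of these data known. All 37 were found among the 21883 protein-coding genes of the RefSeq table of GRCm38.p6, which has the chromosomes of mm10. Each gene was followed through 8 stages of the chemical reprogramming of fibroblasts. A gene end was called covered in a list if a peak overlapped the window within 1 kb of either end of the gene by at least 1 bp. Peaks were also counted within 20 kb of the gene span.

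ATAC-seq, which marks accessible DNA through adapters that the Tn5 transposase inserts, was run on 8 stages. The groups were mouse embryonic fibroblasts (MEF, day 0), cells after 2, 4, 6, 8, 10 and 12 days in reprogramming medium, and the induced pluripotent stem cells (iPSC) that resulted. All came from E13.5 embryos labelled 129XOG2, and the fibroblasts were of low passage. The OG2 strain is known for a fluorescent reporter under Pou5f1 control. MEF were grown in serum; iPSC were grown on feeder cells, which are commonly fibroblasts, with LIF, CHIR99021 and PD0325901. The labels name no drugs of the reprogramming medium and do not say whether the iPSC were 1 clone. There were 16 samples, 2 per stage, but 1 deposited peak list per stage, so no replicate spread could be computed and no difference between stages was tested.

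Germ cells are the precursors of eggs and sperm. During meiosis their chromosomes are broken, paired along the synaptonemal complex and exchanged, while piRNAs, small RNAs bound by PIWI proteins, silence transposons. In other cell types, many promoters of such genes are known to be kept silent by DNA methylation and by repressor complexes, among them a variant Polycomb complex that holds MGA, MAX, E2F6, L3MBTL2 and PCGF6. In that complex MAX and MGA bind the E-box and E2F6 binds E2F sites.

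The longest list was that of day 2, with 82986 peaks, and the shortest that of day 12, with 31865. The background pileup, which grows with depth, was close in iPSC and at day 0, at 1.90 and 1.96, and ranged from 0.248 (day 12) to 3.08 (day 2) at the other stages. Of 8 genes of pluripotent cells, an end was covered for 6 in iPSC and 3 at day 0. Of 8 genes of fibroblasts, it was 7 in iPSC and 7 at day 0, so the iPSC list did not lack fibroblast marker ends. Their peaks were smaller there: the pileups (fragments over the summit) of the best peak of each gene summed to 125 in iPSC and 244 at day 0. For 8 housekeeping genes, which most cell types use, the sums were 303 and 458, so a lower sum in iPSC was not particular to the fibroblast genes. For the genes of pluripotent cells the sums were 1183 and 46. The part of feeder cells in the iPSC list was not tested. Of 16 genes of spermatids, 11 had a covered end at day 0, against 1 or 2 in each of the other 7 lists. Markers of gonadal somatic cells were covered for 2 or 3 of 8 genes in every list, and markers of oocytes for 2 of 6 in iPSC and 1 of 6 in every other list.

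In the lists as deposited, more ends of these genes were covered in iPSC than at any earlier stage. An end was covered for 13 of the 37 genes on day 0, 13 on day 2, 7 on day 4, 11 on day 6, 10 on day 8, 11 on day 10, 8 on day 12 and 23 in iPSC. Among all protein-coding genes the shares were 55% on day 0, 62.2% on day 2, 51.6% on day 4, 54.5% on day 6, 55.2% on day 8, 56.4% on day 10, 44.3% on day 12 and 58.6% in iPSC. The share of the 37 genes was thus close to that of all genes in iPSC, at 62.2% (95% interval 44.8 to 77.5), and below it at day 0, at 35.1% (20.2 to 52.5). These intervals are exact Clopper-Pearson intervals and cover counting error only. With the better-scored 50% of each list, the iPSC share was 32.4%, beside 45.1% of all genes. With all lists scaled to the shallow day 12 list, it was 21.6%, beside 34.7%, and the counts were 8 genes on day 8, 9 on day 10, 8 on day 12 and 8 in iPSC, so that iPSC no longer stood above the stages just before it. In the deposited lists at days 2 to 12 the gene share lay between 18.9% (8.0 to 35.2, day 4) and 35.1% (day 2).

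**Figure D1:**
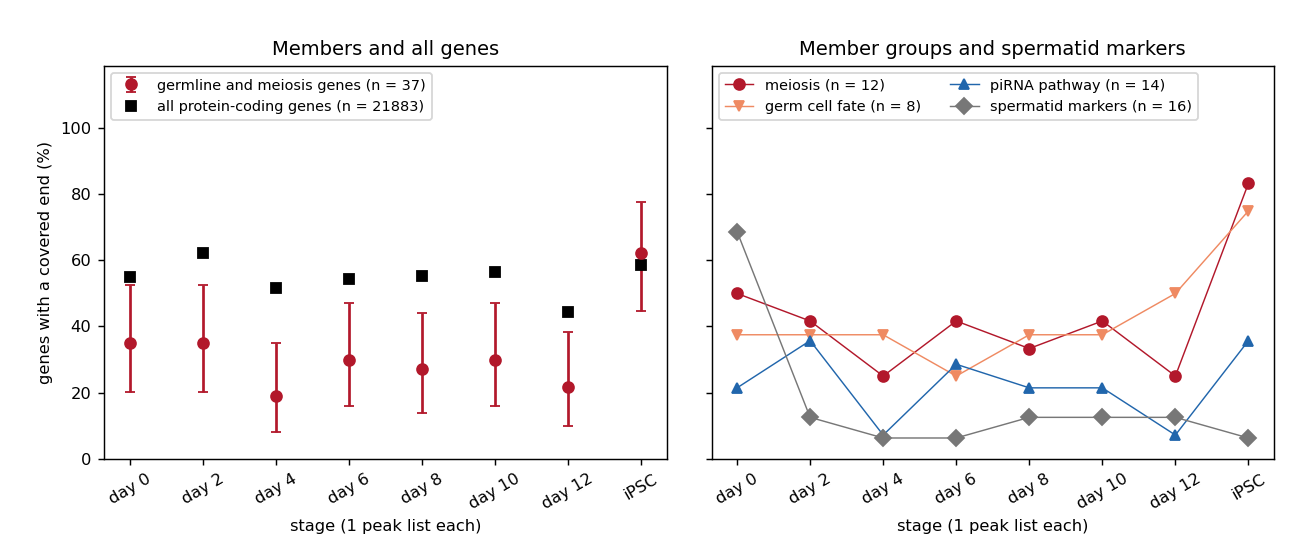
Left, the percentage of genes with a covered end in each stage's list (x axis, stage), for the 37 germline and meiosis genes (circles, with exact 95% intervals) and for all 21883 protein-coding genes (squares). Right, the same percentage for 3 groups of the 37 genes and for 16 spermatid markers. The circles lie below the squares from day 0 to day 12 and beside them in iPSC, and the spermatid markers are high at day 0 alone, with 11 of 16 covered.

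Every role group had more covered ends in iPSC than at day 0, though the groups were small. Of all protein-coding genes, 58.6% had a covered end in iPSC and 55% at day 0. Of the 12 genes of meiosis, an end was covered for 10 in iPSC and 6 at day 0, with 3 to 5 at the stages between. Of the 8 genes of germ cell fate, it was 6 in iPSC and 3 at day 0, with 2 to 4 between. The piRNA pathway had the lowest share in iPSC, with 5 of 14 genes there, 3 at day 0 and 1 to 5 between. Its iPSC share, 35.7%, was below that of all genes, and its count on day 2 was also 5. Of the 3 other genes, Brdt and Slc25a31 were covered in iPSC and Tex101 at day 0.

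Comparing iPSC with day 0 directly, 14 of the 37 genes had an end covered in iPSC and not at day 0, which is 37.8% (22.5 to 55.2) beside 8.67% of all protein-coding genes. The reverse held for 4 genes, beside 5.02% of all. Because the genes were chosen with earlier results of these data known, neither share is independent of the data. The interval covers counting error only and is not a test. With all lists scaled to the day 12 list, the 2 counts were 5 and 0, beside 9.93% and 6.89% of all. In 12 of the 14 genes the end was covered in iPSC and in no other list, a pattern that 2.13% of all protein-coding genes showed (467 genes). The 12 genes are Ddx4, Nanos3 and Dnd1 of germ cell fate, Stra8, Sycp1, Sycp2, Sycp3 and Tex12 of meiosis, Tdrd12 and Mov10l1 of the piRNA pathway, and Brdt and Slc25a31. Together they made up 2.57% of the 467 genes, while the 37 genes are 0.169% of all protein-coding genes. Of the other 25 genes, 5 had an end covered in all 8 lists, beside 36.9% of all genes, and 6 in none, beside 29.7%.

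**Figure D2:**
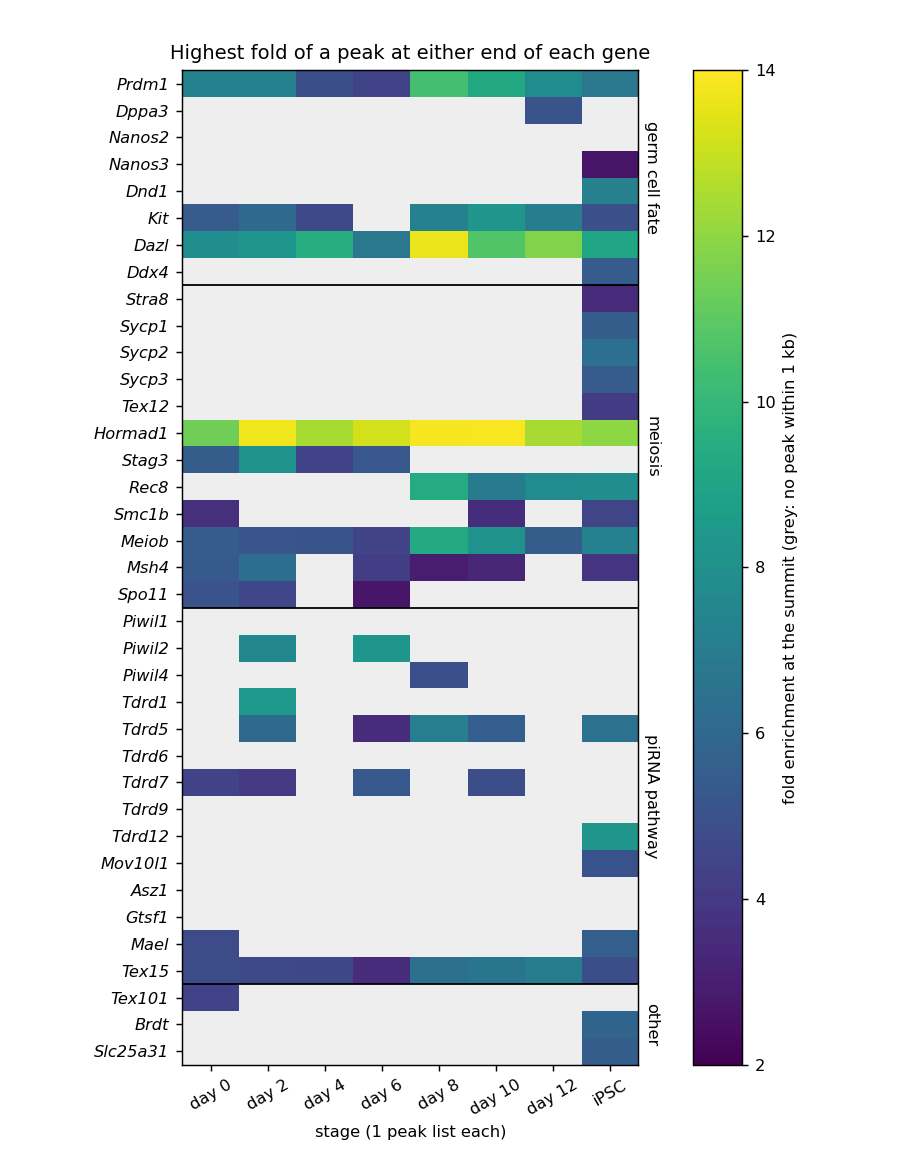
Highest fold enrichment of a peak within 1 kb of either end of each of the 37 genes (rows, grouped by role) in each stage's list (columns). Grey marks a gene with no peak at either end. The column for iPSC holds 23 coloured cells and that for day 0 holds 13, and 12 genes are coloured in iPSC alone.

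For 30 of the 37 genes the RefSeq promoter table gives a start site and a strand, so that the start could be told from the other end. Judged by the start alone, Mael and Hormad1 entered the group and Stra8 left it, as did Dnd1, which has no row there. This again gave 12 genes, of 30, whose start was covered in iPSC only, beside 1.7% of the 17491 genes with such a start. The start was covered in iPSC and not at day 0 for 15 of the 30, beside 7.45% of all, and at day 0 and not in iPSC for none, beside 4.23% of all. In iPSC the start of 22 of the 30 genes was covered, against 7 at day 0, while all genes stood at 59.2% in iPSC and 56% at day 0.

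The peaks at these 12 starts were small and sat on the start. In bulk libraries such as these, a weak opening in many cells and a stronger one in few cells cannot be told apart. The fold enrichment, here and below the value the authors' peak caller gave at the summit, ran from 2.70 to 6.90 with a median of 5.50. The pileup, the number of fragments over the summit, ran from 11 to 30 with a median of 17. The summits lay 6 to 214 bp from the start, with a median of 64 bp, and the peaks were 320 to 1281 bp wide. For comparison, the median iPSC fold was 4.98 over the 298 genes with a start covered in iPSC only, 6.80 over all 10363 starts covered in iPSC and 7.57 over the 6919 starts covered in every list. The 12 peaks scored better than 6.13 to 63.2% of the iPSC peaks, with a median of 42.65%.

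Of the 12 genes with a start covered in iPSC only, 5 are genes of meiosis. Sycp3, which encodes a protein of the chromosome axis, had an iPSC peak at chr10:88459443-88460723 with a pileup of 30 and a fold of 5.45, its summit 27 bp into the gene. Sycp2, which encodes the axial partner of SYCP3, had one at chr2:178407093-178407962 with a pileup of 20 and a fold of 6.38. Sycp1, which encodes the transverse filament that joins the axes, had one at chr3:102935657-102936135 with a pileup of 15 and a fold of 5.52. At all 3 genes no peak lay within 1 kb of either end in the other 7 lists. Tex12, which encodes a protein of the central element, and Hormad1, which encodes an axis protein that watches over pairing, had the lowest folds of these 5, both with a pileup of 11 and a fold of 4.14. Hormad1 does not appear among the genes with an end in iPSC only because its other end, within 1 kb of an end of Golph3l as well, was covered in all 8 lists.

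Stra8, which encodes a retinoic acid-induced regulator of entry into meiosis, differed in detail. Its lower end was covered in iPSC only, by a broad peak at chr6:34920185-34921346 with a pileup of 23 and a fold of 3.49. A stronger region just inside the gene, chr6:34921811-34922676, had a fold of 6.38 on day 0, 10.8 on day 8, 11.2 on day 10 and 9.46 in iPSC. This internal region was thus shared by the iPSC and day 0 lists and was in none of those of days 2, 4, 6 and 12.

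Among the genes of germ cell fate, Ddx4, the vasa RNA helicase that marks germ cells, had an iPSC peak at chr13:112651950-112652521 with a pileup of 18, a fold of 5.47 and its summit 92 bp upstream of the start. Nanos3, an RNA-binding factor that primordial germ cells need to survive, had a pileup of 18 but the lowest fold of the 12, 2.70, over a local background of 6.04 where the median of the 12 was 1.95. Dnd1, an RNA-binding partner of NANOS proteins, had a pileup of 36 and a fold of 7.20 at its lower end. That peak also lay within 1 kb of an end of Wdr55, and so cannot be assigned to Dnd1 alone.

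In the piRNA pathway, Tdrd12, a Tudor-domain helicase that takes part in making secondary piRNAs, was covered at both ends in iPSC only. Its start peak at chr7:35537678-35538000 had a pileup of 19 and the highest fold of the 12, 6.90, and the peak by its other end had a pileup of 53 and a fold of 8.28. Mov10l1, an RNA helicase that feeds piRNA precursors into processing, had a pileup of 14 and a fold of 5.00, in a peak that also lay within 1 kb of an end of Mlc1. Mael, a component of the nuage where piRNAs are made, had a pileup of 18 and a fold of 5.63, its summit 6 bp from the start. Brdt, a bromodomain protein of the testis, had a pileup of 16 and a fold of 5.87, and Slc25a31, an ADP/ATP carrier of the testis, a pileup of 15 and a fold of 5.52. The peaks of these 5 genes all had their summit within 64 bp of the start.

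**Figure D3:**
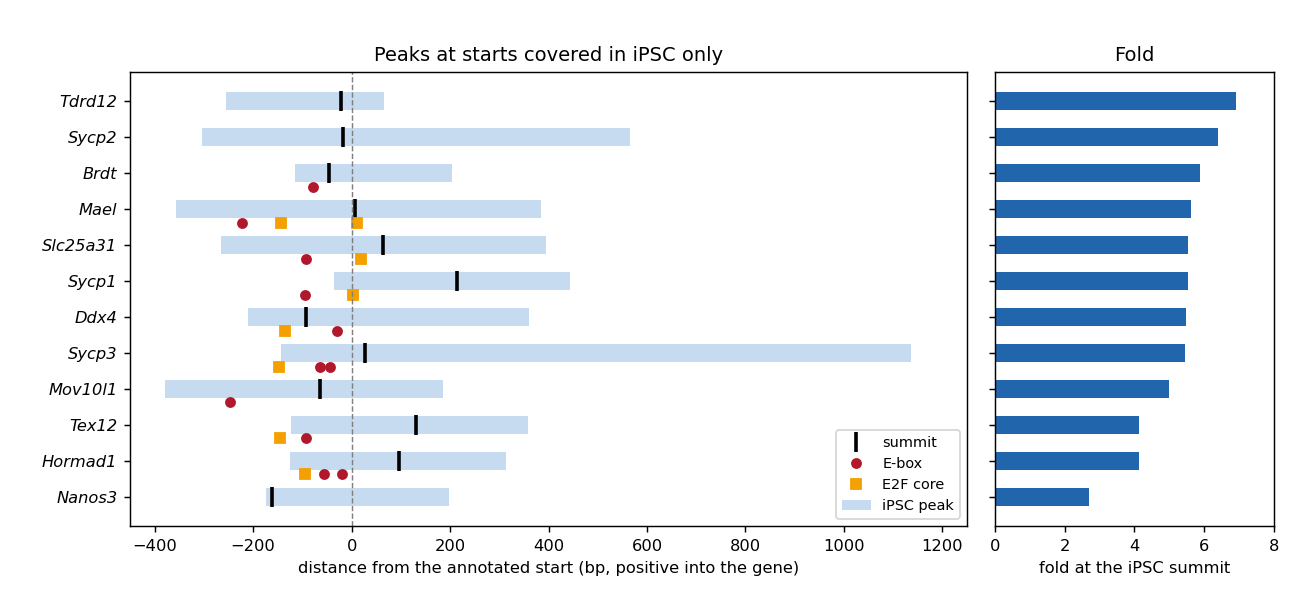
Left, the extent of the iPSC peak (bars) and its summit (black ticks) around the annotated start of the 12 genes whose start was covered in iPSC only (x axis, bp from the start), with the first base of each E-box (circles) and E2F core (squares) found in the promoter window. Right, the fold at the iPSC summit. All 12 summits lie within 214 bp of the start, and the folds run from 2.70 (Nanos3) to 6.90 (Tdrd12).

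The promoter sequences of 8 of these genes are shown because 6 of them share the E-box, a motif in 7.92% of all promoters. The 8 are those with the best-scored iPSC peaks. Each window runs from 250 bases before the start to 50 bases after it, from RefSeq on GRCm38.p6, 5′ to 3′ on the strand of the gene. Capitals mark the E-box CACGTG, which reads the same on both strands, and the E2F core GCGGGA, which reads TCCCGC on the other strand. The windows are chr10:88459337-88459636 on the plus strand for Sycp3, chr3:102936051-102936350 on the minus strand for Sycp1, chr13:112652261-112652560 on the minus strand for Ddx4, chr1:166238695-166238994 on the minus strand for Mael, chr3:40708621-40708920 on the plus strand for Slc25a31, chr5:107330944-107331243 on the plus strand for Brdt, chr2:178407609-178407908 on the minus strand for Sycp2 and chr7:35537695-35537994 on the minus strand for Tdrd12.
Sycp3: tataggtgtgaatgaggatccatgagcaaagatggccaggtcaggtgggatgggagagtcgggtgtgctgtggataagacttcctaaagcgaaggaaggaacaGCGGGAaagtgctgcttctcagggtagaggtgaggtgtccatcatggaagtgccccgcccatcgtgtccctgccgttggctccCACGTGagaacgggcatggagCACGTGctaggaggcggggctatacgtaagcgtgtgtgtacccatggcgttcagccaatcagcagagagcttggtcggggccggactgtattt
Sycp1: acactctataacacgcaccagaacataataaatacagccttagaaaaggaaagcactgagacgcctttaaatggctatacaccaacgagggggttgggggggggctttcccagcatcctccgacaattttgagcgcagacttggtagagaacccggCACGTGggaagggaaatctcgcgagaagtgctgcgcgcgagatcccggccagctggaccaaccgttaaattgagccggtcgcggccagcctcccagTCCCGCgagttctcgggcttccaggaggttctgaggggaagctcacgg
Ddx4: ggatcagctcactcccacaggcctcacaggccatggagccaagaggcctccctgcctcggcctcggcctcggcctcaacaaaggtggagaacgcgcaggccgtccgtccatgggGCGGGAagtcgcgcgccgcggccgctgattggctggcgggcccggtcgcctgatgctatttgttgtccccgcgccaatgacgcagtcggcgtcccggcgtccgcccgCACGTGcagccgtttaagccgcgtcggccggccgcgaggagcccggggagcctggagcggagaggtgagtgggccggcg
Mael: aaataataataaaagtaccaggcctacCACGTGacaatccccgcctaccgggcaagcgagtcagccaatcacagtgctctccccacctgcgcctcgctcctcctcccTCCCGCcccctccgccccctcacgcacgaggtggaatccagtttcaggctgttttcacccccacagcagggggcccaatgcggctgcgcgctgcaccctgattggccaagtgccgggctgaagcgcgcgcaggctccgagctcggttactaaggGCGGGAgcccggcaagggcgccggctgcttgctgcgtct
Slc25a31: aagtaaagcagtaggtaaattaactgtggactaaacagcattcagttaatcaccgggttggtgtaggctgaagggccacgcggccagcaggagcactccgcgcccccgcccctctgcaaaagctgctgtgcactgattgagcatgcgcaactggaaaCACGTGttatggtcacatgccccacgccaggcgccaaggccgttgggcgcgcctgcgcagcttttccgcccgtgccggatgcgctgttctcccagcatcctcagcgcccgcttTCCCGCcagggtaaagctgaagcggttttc
Brdt: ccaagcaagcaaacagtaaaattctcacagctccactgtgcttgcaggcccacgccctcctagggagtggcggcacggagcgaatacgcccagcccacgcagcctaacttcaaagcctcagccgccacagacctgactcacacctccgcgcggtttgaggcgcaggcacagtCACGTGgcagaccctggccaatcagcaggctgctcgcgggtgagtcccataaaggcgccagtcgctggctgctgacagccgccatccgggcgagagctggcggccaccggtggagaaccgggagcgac
Sycp2: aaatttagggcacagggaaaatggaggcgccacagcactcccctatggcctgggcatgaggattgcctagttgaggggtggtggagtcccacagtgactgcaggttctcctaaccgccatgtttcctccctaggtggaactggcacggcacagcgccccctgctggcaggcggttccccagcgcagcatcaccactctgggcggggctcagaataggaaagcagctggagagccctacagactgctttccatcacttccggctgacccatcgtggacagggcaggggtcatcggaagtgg
Tdrd12: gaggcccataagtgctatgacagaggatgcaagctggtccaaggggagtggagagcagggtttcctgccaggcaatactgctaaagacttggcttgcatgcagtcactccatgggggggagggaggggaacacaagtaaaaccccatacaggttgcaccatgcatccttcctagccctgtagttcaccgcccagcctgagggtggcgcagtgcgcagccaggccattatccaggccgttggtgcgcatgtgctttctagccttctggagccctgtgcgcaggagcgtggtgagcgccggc

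Sycp3 carries 2 E-boxes, 64 and 43 bases upstream of the start, and 1 E2F core 147 bases upstream. Sycp1, Ddx4, Mael and Slc25a31 each carry 1 E-box and at least 1 E2F core, and Brdt carries an E-box alone. Sycp2 and Tdrd12, which had the highest folds of the 12, carry neither motif. Among the 12 genes whose start was covered in iPSC only, 9 promoters held the E-box and 7 of these 9 held the E2F core too. The 3 E-box promoters not printed are those of Hormad1, Tex12 and Mov10l1.

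The same motifs were less common among all promoters and among all promoters with a start covered in iPSC only. The E-box was in 75% of the 12 promoters, in 9.06% of the 298 promoters with a start covered in iPSC only and in 7.92% of all 17491 promoters. The E2F core was in 58.3% of the 12, in 20.8% of the 298 and in 25.7% of all. Among the 6919 promoters covered in every list, the E-box was in 10.7% and the E2F core in 39.4%. Among all 30 genes described here that have a promoter window, the shares were 43.3% and 40%, so neither motif was confined to the 12. Other small lists varied. Of 13 promoters of the further meiosis genes described below, 1 held the E-box and 7 the E2F core. Of 7 promoters of further piRNA genes it was 3 and 2, of 6 housekeeping promoters 2 and 3, and of 15 spermatid promoters 0 and 0. Of the 12 genes of any kind that held both motifs and had a start covered in iPSC only, 7 are genes described here, or 58.3%. The E-box alone did not mark the pattern, since 1.95% of all 1385 promoters with an E-box were covered in iPSC only and 53.6% were covered in every list. Among the 8 genes of the 30 whose start was not covered in iPSC, the E-box was in the promoters of Piwil1, Tdrd9 and Tdrd1 and the E2F core in none. Of the 11 E-box matches in the 12 promoters, all were upstream of the start, by 20 to 246 bases, and 10 overlapped the iPSC peak. A match is a run of letters and not evidence of binding, and no 2 of these matches overlapped each other.

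**Figure D4:**
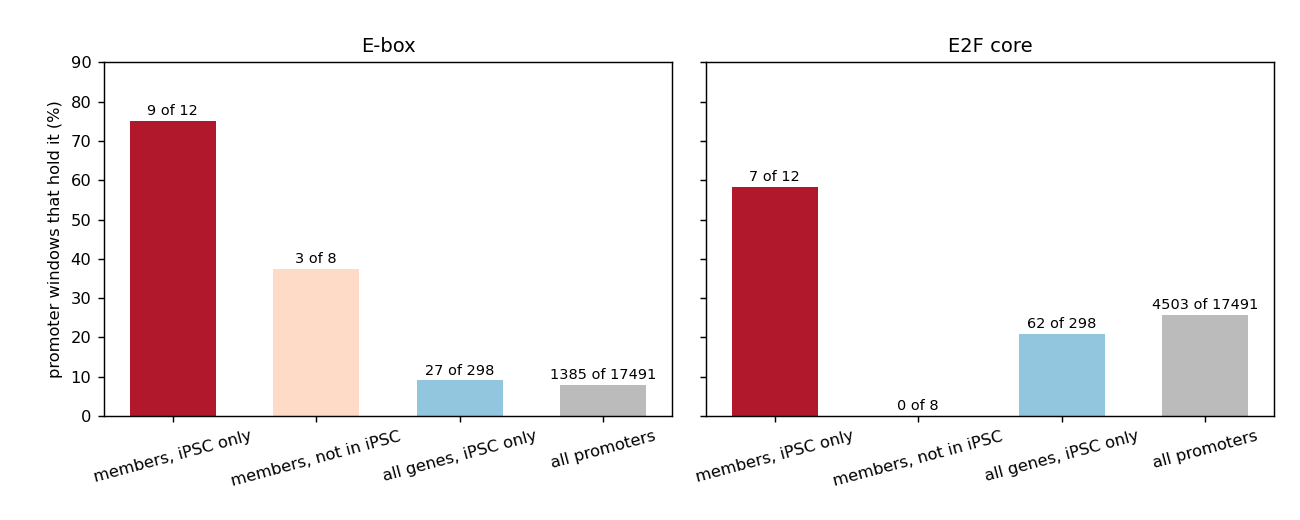
Percentage of promoter windows that hold an E-box (left) or an E2F core (right), with the counts above the bars, for the genes described here with a start covered in iPSC only, for those with a start not covered in iPSC, for all genes with a start covered in iPSC only, and for all promoters. The E-box bar of the first set, 9 of 12, stands above that of all promoters, at 7.92%.

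Most of these promoters held many CpG. The number of CpG in the window ran from 3 (Nanos3) to 38 (Ddx4) over the 12 genes, and those of Nanos3, Tdrd12 (9) and Sycp2 (10) lay below the median of all promoters. The median was 21.5 for the 12 genes, 8 for all genes with a start covered in iPSC only, 13 for all promoters and 23 for promoters covered in every list. Promoters covered in no list had a median of 2. The median of the 12 genes was thus close to that of starts that were covered throughout.

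Whether such small peaks could have been found in the other lists depends on depth. With pileup and background scaled down to the depth of another list, all 12 would still have passed at the depth of day 4, 11 on day 10, 9 on day 8 and none on day 12. Of all starts covered in iPSC, 99.1% would have passed on day 4, 97.9% on day 10, 93.4% on day 8 and 61.4% on day 12. The lists of days 0, 2 and 6 had a higher background pileup than iPSC. The absence of the 12 from the day 12 list was therefore not detectable as a difference at that depth.

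Some genes had an end covered before the iPSC stage. Rec8, which encodes the meiotic kleisin subunit of cohesin, had no peak at its start from day 0 to day 6. It had a pileup of 27 and a fold of 9.40 on day 8, 32 and 6.99 on day 10, 10 and 7.81 on day 12, and 36 and 7.86 in iPSC. Its start was thus covered from day 8 on, including the shallow day 12 list. Tdrd5, a Tudor-domain protein of the chromatoid body, had a fold at its start of 6.13 on day 2, 4.93 on day 4, 3.53 on day 6, 7.13 on day 8, 5.59 on day 10 and 6.53 in iPSC, with no peak on day 0 and day 12. Its pileup was 25 in iPSC and 24 at day 2, and 10 or 11 in the lists between.

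Dppa3, also called Stella, a marker of primordial germ cells and of naive pluripotent cells, had an end covered in the day 12 list alone, with a pileup of 7 and a fold of 5.11. The region nearest to its lower end in iPSC, chr6:122624359-122625061, was covered in iPSC only, 1363 bp away, with a pileup of 63 and a fold of 8.13. Within 20 kb of the gene there were 0 peaks on day 0, 1 on day 2, 0 on day 4, 2 on day 6, 1 on day 8, 2 on day 10, 6 on day 12 and 4 in iPSC. The neighbourhood was thus empty in the fibroblast list and most crowded in the last 2 lists. However, its day 12 peaks had pileups of 3 to 8, in a list whose lowest summit pileup was 3, against 8 at day 0 and in iPSC. The day 12 count is therefore not comparable with those of day 0 and iPSC.

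Kit, the receptor for stem cell factor, which migrating germ cells need, was covered at its start in every list but day 6. The fold there was 5.43 on day 0, 6.10 on day 2, 4.63 on day 4, 7.29 on day 8, 8.25 on day 10, 7.09 on day 12 and 4.92 in iPSC. Around the gene there were 2 peaks on day 0, 4 on day 2, 1 on day 4, 0 on day 6, 9 on day 8, 8 on day 10, 5 on day 12 and 7 in iPSC. The regions of day 8 and those of iPSC were partly separate: chr5:75589536-75589855 was covered at days 8 and 10 only, with folds of 10.3 and 8.10, and chr5:75599774-75600512 in iPSC only, with a fold of 6.14.

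The 5 genes with an end covered in all 8 lists were Dazl, Prdm1, Meiob, Tex15 and Hormad1. Dazl, an RNA-binding protein of the germline, had a fold of 7.88 on day 0, 8.32 on day 2, 9.46 on day 4, 6.74 on day 6, 13.7 on day 8, 10.7 on day 10, 11.7 on day 12 and 9.05 in iPSC. All 8 summits lay 782 to 814 bp inside the gene and not at the start itself. Prdm1, the repressor that starts the germ cell programme, had folds of 4.42 (day 6) to 10.4 (day 8) at its higher end, and of 2.95 (day 2) to 9.82 (day 8) at an annotated start inside the gene span. At the higher end, its fold was 6.75 in iPSC and 7.25 at day 0.

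Meiob, which encodes a single-strand DNA-binding protein of meiotic recombination, had folds of 5.47 on day 0, 5.18 on day 2, 5.09 on day 4, 4.47 on day 6, 9.35 on day 8, 8.11 on day 10, 5.55 on day 12 and 7.27 in iPSC. Those summits lay within 150 bp of the lower gene end in every list, and with a window of 500 bp Meiob was the only gene of the 37 covered in all 8. Tex15, which acts in piRNA-guided silencing, had folds of 3.53 (day 6) to 7.02 (day 12), with summits 570 to 1108 bp from its lower end. The peak by the higher end of Hormad1 had folds of 11.4 (day 0) to 13.9 (day 10), with the end of Golph3l in reach as named above.

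The 4 genes with an end covered at day 0 and not in iPSC were Spo11, Tdrd7, Stag3 and Tex101. Spo11, which encodes the enzyme that breaks DNA to start recombination, had a fold of 5.06 on day 0, 4.54 on day 2 and 2.74 on day 6. Tdrd7, a Tudor-domain protein of the chromatoid body, had folds at its lower end of 4.40 on day 0, 3.99 on day 2, 5.30 on day 6 and 4.83 on day 10, while a second annotated start of it was covered in every list but day 4, with a fold of 5.45 in iPSC and 4.68 on day 0. Stag3, a meiotic cohesin subunit, had folds at its lower end of 5.52 on day 0, 8.19 on day 2, 4.40 on day 4 and 5.25 on day 6, in a peak that also lay within 1 kb of ends of Gal3st4 and Gpc2. The annotated start of Stag3, which lies inside the gene span, was covered in all 8 lists, as were starts of Dazl and Prdm1 and 39.6% of all annotated starts. Its fold was 8.33 in iPSC and 8.85 at day 0, in a peak that also lay within 1 kb of an end of Gpc2 and cannot be assigned to Stag3 alone. With ends shared with another gene left out, the 4 genes covered at day 0 and not in iPSC were Spo11, Tdrd7, Tex101 and Msh4.

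Tex101, which encodes a surface protein of male germ cells, was the only gene of the 37 with an end covered at day 0 only, beside 0.608% of all protein-coding genes. Its peak had a pileup of 12 and a fold of 4.40. Mael had, in addition to its iPSC start peak, a day 0 peak at the other end with a pileup of 13 and a fold of 4.73. In all, 11 regions within 20 kb of the 37 genes were covered at day 0 only, with pileups of 9 to 20 and a median of 13. They were 3.91% of the 281 regions around the genes, beside 5.55% of all regions in the 8 lists, those far from genes included. At an end of the 37 genes it was 2 of 37 regions (5.41%), beside 2.29% at ends of any protein-coding gene. At no gene end it was 3.54% of 198 regions, beside 5.95% around all protein-coding genes. Of the spermatid markers, 9 of 16 had an end covered at day 0 only, beside 0.608% of all protein-coding genes. The 11 covered at day 0 had pileups of 15 to 300 with a median of 63. Prm1, a protamine that packs sperm DNA, had a pileup of 300 and a fold of 25.4, and no spermatid marker but Gapdhs, which was covered in all 8 lists, was covered in iPSC. The summed pileup of the best peak of each marker was 31 in iPSC and 1037 at day 0. The part of the spermatid signal in the day 0 peaks of Tex101, Mael and Piwil1 was not tested. Without the day 0 list, the count of genes with an end covered in iPSC only was 13.

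Covered only between the end points, beside 6.62% of all genes, were 4 genes. Besides Dppa3 they were Piwil2, Piwil4 and Tdrd1. Piwil2, also called Mili, had a fold of 7.60 at day 2 and 8.29 at day 6, 887 to 913 bp inside its lower end. Piwil4, also called Miwi2, had a fold of 4.91 at day 8. Another annotated start of Piwil4, inside the gene span, was covered at days 2 and 6, with folds of 4.66 and 3.85. Tdrd1, a scaffold that holds PIWI proteins, had a fold of 8.41 at day 2, at its other end and not at its start. Smc1b, a meiotic cohesin subunit whose start lies by that of Ribc2, had folds of 3.63 at day 0, 3.56 at day 10 and 4.49 in iPSC. Msh4, a MutS homologue of crossover formation, was covered in 6 lists, with a fold of 3.84 in iPSC and 5.42 at day 0, in a region that also lay within 1 kb of an end of Rabggtb.

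The 6 genes with no covered end in any list were Nanos2, which encodes an RNA-binding factor of male germ cells, and Piwil1, Tdrd6, Tdrd9, Asz1 and Gtsf1 of the piRNA pathway. Nanos2 still had 2 or 3 peaks within 20 kb in every list, among them one in all 8 lists by Mypop, 1189 bp from its nearest end. Piwil1, also called Miwi, had 2 peaks at day 0, 2 at day 8, 1 in iPSC and none in the other lists. Its iPSC region lay 13648 bp from the gene, with a fold of 7.94.

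Counts of peaks around the genes differed less between iPSC and day 0 than counts of genes with a covered end did. The former include the peaks at the ends and count peaks, while the latter count genes. Within 20 kb of the 37 genes there were 81 peaks on day 0, 143 on day 2, 68 on day 4, 99 on day 6, 84 on day 8, 96 on day 10, 66 on day 12 and 109 in iPSC. The mean was 2.95 peaks per gene in iPSC and 2.19 at day 0, beside 2.82 and 2.71 over all protein-coding genes. Per 100 kb of span and flanks, the density of peaks relative to all genes was 1.13 in iPSC and 0.874 at day 0. Peaks merged over the lists gave 281 regions around the genes. Of the 37 regions at an end of a member gene, 15 (40.5%) were covered in iPSC only, against 26 of the 198 at no gene end (13.1%). The remaining regions lay at ends of neighbouring genes. Over all protein-coding genes, it was 6.24% of 18131 regions at gene ends and 13.9% of 96655 regions within 20 kb at no gene end.

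**Figure D5:**
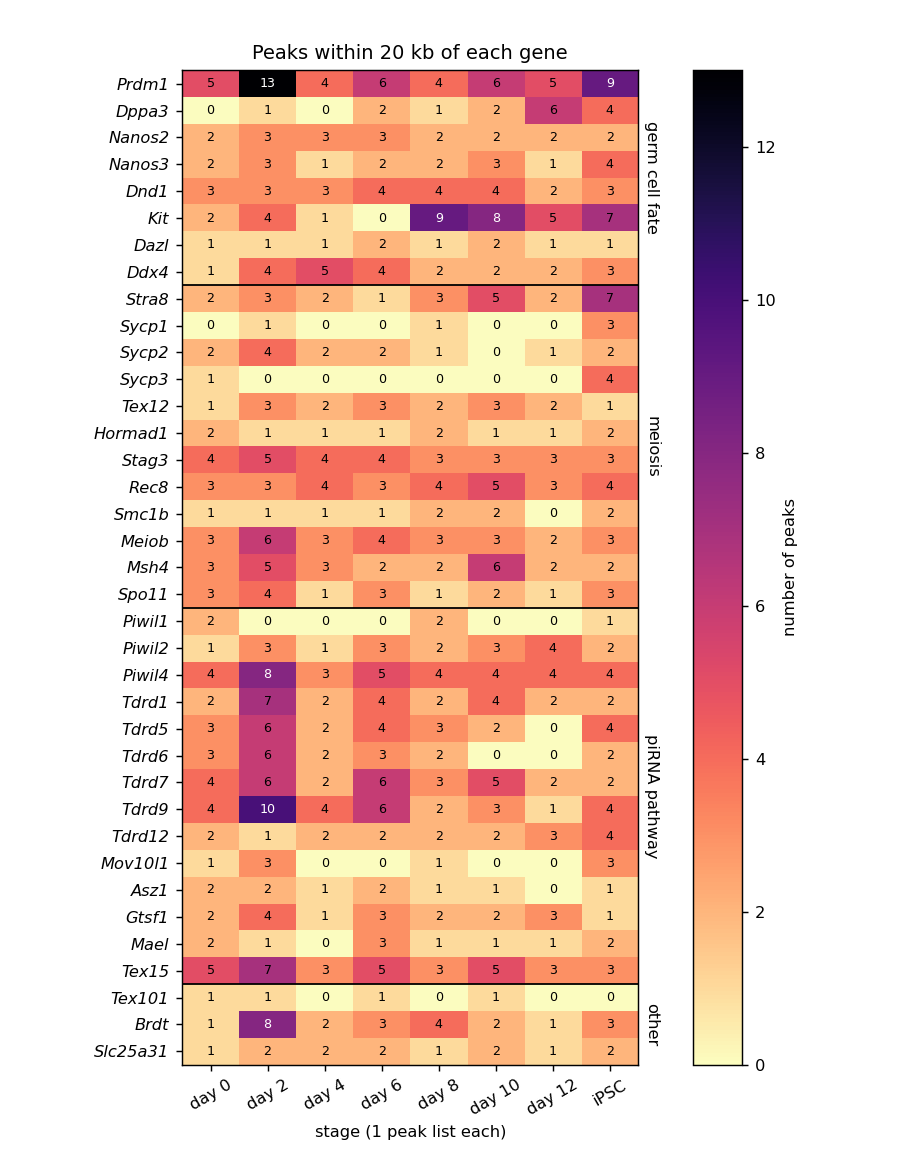
Number of peaks within 20 kb of each of the 37 genes (rows, grouped by role) in each stage's list (columns), as deposited and not scaled for depth. The day 2 list, the longest, has the highest total at 143 peaks, and Kit has 0 to 2 peaks at days 0, 4 and 6 and 5 to 9 from day 8 on.

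Around Sycp3, Stra8, Sycp1, Tdrd12 and Nanos3 the iPSC list held the most peaks of the 8 lists. The share of all genes with this pattern was not computed. Sycp1 had 3 peaks in iPSC and at most 1 elsewhere, and Tdrd12 and Nanos3 each had 4, with at most 3 elsewhere. Sycp3 had 1 peak within 20 kb at day 0, none at days 2 to 12 and 4 in iPSC, each in a region that no other list covered. Stra8 had 2 peaks on day 0, 3 on day 2, 2 on day 4, 1 on day 6, 3 on day 8, 5 on day 10, 2 on day 12 and 7 in iPSC.

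Of 17 further genes of meiosis, an end was covered for 15 in iPSC and 9 at day 0, beside 58.6% and 55% of all protein-coding genes. This list and the further lists below were also chosen with earlier results known, so they are not independent support. An end was covered in iPSC and not at day 0 for 6 of the 17 (35.3%), beside 8.67% of all. The 6 were Terb2, which tethers telomeres to the nuclear envelope, Rad21l, a meiotic cohesin subunit, Hormad2, an axis protein, Meioc, which sustains the meiotic programme, Dmc1, the meiotic recombinase, and Syce3, of the central element. Dmc1 had a fold of 3.53 on day 6, 10.2 on day 8, 5.57 on day 10 and 8.31 in iPSC, and Hormad2 one of 7.03 at days 10 and 12 and 8.95 in iPSC. Terb2, with a fold of 8.33 near an end of Patl2, Rad21l, with 6.21, Meioc, with 4.83, and Syce3, with 6.97, were covered in iPSC only. None of the 5 promoters in the further lists of meiosis and germ cell fate with a start covered in iPSC only held the E-box.

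Of 12 further genes of the piRNA pathway, an end was covered for 8 in iPSC (66.7%) and 6 at day 0 (50%), both near the shares of all genes, 58.6% and 55%. An end was covered in iPSC and not at day 0 for 4 of them, beside 8.67% of all genes, and at day 0 and not in iPSC for 2, beside 5.02%. Rnf17, a Tudor-domain protein, had a fold of 4.81 at day 12 and 10.8 in iPSC, and Stk31 had 4.00 at day 12 and 6.21 in iPSC. Morc1, which silences transposons, had a fold of 4.46 at its lower end and Pnldc1, the piRNA trimmer, one of 5.37 near an end of Mrpl18, both in iPSC only. Covered at day 0 and not in iPSC were Spocd1, of piRNA-guided DNA methylation, with a fold of 4.41 at day 0, and Fkbp6, with 3.38.

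Of 13 further genes of germ cell fate, an end was covered for 9 in iPSC (69.2%) and 4 at day 0 (30.8%), again beside 58.6% and 55% of all genes. Sohlh2, a factor of early spermatogonia and oocytes, had a fold of 9.64 and Tfap2c, a factor of primordial germ cells, one of 3.74, both in iPSC only. Prdm14, a regulator of germ cells and of naive pluripotency, had a fold of 3.06 in iPSC, Nobox, of oocytes, 4.71, Dmrt1, of the testis, 5.52, and Ifitm1, a surface protein of early germ cells, 6.18 at its lower end. Each of these 4 also had an end covered in at least 1 list between days 2 and 12. Of all protein-coding genes, 8.67% had an end covered in iPSC and not at day 0, and 2.13% in iPSC only. Zbtb16, also called PLZF, of spermatogonial stem cells, was covered at day 0, with a fold of 5.41, and not in iPSC, a pattern of 5.02% of all genes.

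Of 12 genes that encode repressors of germline promoters, an end was covered for 6 in iPSC (50%) and 10 at day 0 (83.3%), beside 58.6% and 55% of all genes. The difference rests on 4 genes with day 0 folds of 2.88 to 4.39 and was not tested. Mga, Max, L3mbtl2, Pcgf6, Uhrf1 and Dnmt3b were covered in all 8 lists. Covered at day 0 and not in iPSC were Dnmt1, the maintenance DNA methyltransferase, with a fold of 3.01 at day 0, E2f6, with 4.39, and Ehmt1 and Ehmt2, the histone H3 lysine methyltransferases GLP and G9a, with 4.28 and 2.88. Ehmt1 and E2f6 had a peak in each list from day 0 to day 10 and none at day 12 and in iPSC. Ehmt2 had one at days 0, 2, 4, 6, 10 and 12, and Dnmt1 at day 0 only. Among the markers of other gonadal cells, Zp3, of the egg coat, was covered in iPSC only, with a fold of 5.81, and Amh, of Sertoli cells, was covered in iPSC, with a fold of 3.94, and not at day 0.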

How the data were processed

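The submitters' processing notes name MACS2 2.1.2, a peak caller, and Bowtie2 2.2.5, an aligner, next to fastp 0.20.1, deepTools 3.4.3 and SAMtools, and the build mm10. Their settings, the pooling of the 2 samples of a stage and any shift of reads for the Tn5 offset are not given in the sources used here. Each stage has 1 list deposited by the authors. Per peak, a deposited list gives a position, a score, a fold enrichment (a ratio) and a −log10 p-value; fold and p-value refer to the summit.

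The summit pileup and local background were recovered from the deposited fold and −log10 p-value; the recovered pair matched within 0.001 for no less than 99.949% of peaks in any list. A list's background pileup is the lowest background recovered in it. Peaks on chromosomes 1 to 19, X and Y were used, and 36 to 57 per list were left out. Gene ends came from a RefSeq table and starts and promoters (30 of 37 genes) from a RefSeq promoter table, both GRCm38.p6; 7 genes had no row there. Exon positions were not analysed here. Counts were made with Python 3.11.15, numpy 2.4.6, pandas 2.3.3 and scipy 1.17.1, and the steps were checked on simulated peaks.

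The genes and all lists were chosen with earlier results of these data known. All 37 genes are named; of the further lists, those covered in only 1 of iPSC and day 0, plus genes singled out after their values were seen (Prm1, Gapdhs and the repressors covered throughout). Alternatives were the better-scored 50% of peaks, lists of equal length, scaling to the depth of day 8 or day 12, other windows, overlaps and gene ends, and counts without doubted lists.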

Additional observations from a re-analysis of the deposited data

How the results depend on the processing

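No paired analysis was possible because 1 peak list was deposited per stage, so the columns carry no replicate number. The count of genes with an end covered in iPSC only, 12, was 9 with lists of equal length (2.26% of all genes) and 9 at the depth of day 8 (1.95%). It was 9 with a 2.5 kb window (1.9%) and 13 with a 500 bp window (2.23%). Without the lists of day 0, day 12, both, or days 8 to 12, it was 12 or 13 (2.23 to 3.4%). These last alternatives were chosen after seeing the data. It was 4 with the better-scored 50% of peaks (2.44% of all genes) and 2 at the depth of day 12 (1.12%). Depth therefore limits most what the day 12 list can show of peaks this small. At the depth of days 8 and 10, 9 and 11 of the 12 start peaks would still have passed.

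With the better-scored 50%, ends were covered for 5, 8, 2, 5, 7 and 12 genes at days 0, 2, 4, 6 and 10 and in iPSC. The shares of all genes there were 41.4, 50.2, 40.6, 42.6, 47.3 and 45.1%. An end was covered in iPSC and not at day 0 for 8 genes, beside 9.78% of all, and the reverse held for 1, beside 6.08%. Covered at day 0 only were 0, beside 0.471%, and in all 8 lists 2, beside 26.5%. Peaks within 20 kb then numbered 47, 73, 33, 48, 52, 50, 36 and 61 from day 0 to iPSC. With equal lengths, ends were covered for 6 genes at day 2 (44.6% of all genes) and 5 at day 6 (44.3%). In all 8 lists it was 2 (31.2%), and neighbouring peaks were 56 and 51 at days 2 and 6. At the depth of day 8, it was 5 genes at day 6 (47.9% of all genes), 0 at day 0 only (0.608%) and 2 in all 8 (34.3%). There were 92 and 62 neighbouring peaks at days 2 and 6. At the depth of day 12, it was 3, 5, 2, 2, 8, 9, 8 and 8 genes from day 0 to iPSC, so iPSC did not stand above days 8 to 12. The shares of all genes were 31.7, 39.6, 34.7, 30.1, 51.2, 50.2, 44.3 and 34.7%. Covered in iPSC and not at day 0 were 5, beside 9.93% of all, and 0 in the reverse, beside 6.89%. Covered at day 0 only were 0, beside 0.402%, and in all 8 lists 2, beside 19.5%. There were 32, 49, 28, 32, 59 and 39 neighbouring peaks at days 0, 2, 4, 6 and 10 and in iPSC.

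With a 2.5 kb window, ends were covered for 16 genes at day 8, beside 61.3% of all genes. With 500 bp, it was 8, 7, 3, 5, 5, 6 and 3 genes from day 0 to day 12, and 1 in all 8 lists. The shares of all genes were 51.3, 58.6, 48.2, 50.5, 51.7, 53.2 and 41%, and 34% in all 8 lists. With at least 50% of the peak inside the window, it was 8 genes at day 2 (58.3% of all) and 1 in all 8 (35.1%). At annotated starts, it was 7, 8 and 7 genes at days 0, 2 and 6, beside 56, 62.3 and 55.3% of all starts. It was 0 at day 0 and not in iPSC (4.23% of all), 0 at day 0 only (0.429%) and 3 in all 8 (39.6%). Within 100 kb there were 303, 510, 255, 377, 310, 335, 209 and 375 peaks from day 0 to iPSC, and inside the gene spans 28, 60, 21, 34, 27, 30, 27 and 49. The cause of these shifts was not tested beyond what each setting removes or adds by its construction.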
